A study of Mus musculus with 6 samples.

Results

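Chemokines are small secreted proteins that draw white blood cells along a concentration gradient by binding receptors of the G protein-coupled type. Signals of 10 such genes were described in the left ventricle of obese mice: the ligands Ccl2, Ccl7, Ccl12, Ccl8, Ccl6, Ccl9, Cxcl12 and Cx3cl1 and the receptors Ccr2 and Cx3cr1. They were found by gene symbol in the platform's probe annotation, which gave 21 probe sets, 1 for each of 4 genes and between 2 and 4 for each of the other 6. The 10 genes are among 18193 genes that have a probe set of their own on the array. The list was selected on the Lira against placebo signals, in which Ccl12 stood out, so this contrast is given for them as a description and without a test.

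The mice were male C57BL/6, an inbred strain, aged 6 months, and ate a high fat diet over 16 weeks. In 3 of them the agent was placebo, and in the other 3 an agent the labels name Lira without spelling it out. All 6 thus shared one diet, with no lean or chow-fed group among the arrays analysed here. The design text speaks of 10 mice, of which the 6 arrays analysed here are taken to be 6, and nothing in the labels ties a placebo mouse to a Lira mouse.

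Background on the genes is as follows. Ccl2, Ccl7, Ccl12 and Ccl8 belong to the monocyte chemoattractant protein family, and Ccl2, Ccl7 and Ccl12 bind Ccr2, the receptor by which inflammatory monocytes leave the bone marrow and enter tissue. Cxcl12 is made by stromal and vascular cells and signals through Cxcr4, while Cx3cl1 (fractalkine) is tethered to the membrane of endothelial and other cells and binds Cx3cr1 on monocytes and macrophages. In the heart, macrophages that carry Ccr2 are replenished from blood monocytes, and those that lack it largely maintain themselves.

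In RefSeq gene order on mouse chromosome 11, Ccl2 is followed by Ccl7, Ccl11, Ccl12 and Ccl8, and Ccl9 lies beside Ccl6. The RefSeq promoter table (build GRCm38.p6, 250 bases before to 50 after the gene start) held 8 of the 10 genes, without Ccl2 and Ccl7. The windows of Ccl12 and of its neighbour Ccl8 are shown because these genes had the largest and the next largest log2 difference, and that of Cxcl12, a ligand outside the CC family, is shown for contrast. Capitals mark every match on either strand to the TATA box, searched as TATAAA. They also mark every match to the GC box, the binding motif of Sp1, searched on both strands as GGGCGG. The windows lie at chr11:82101595-82101894 (Ccl12, plus strand), chr11:82114935-82115234 (Ccl8, plus strand) and chr6:117168285-117168584 (Cxcl12, plus strand).

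Ccl12: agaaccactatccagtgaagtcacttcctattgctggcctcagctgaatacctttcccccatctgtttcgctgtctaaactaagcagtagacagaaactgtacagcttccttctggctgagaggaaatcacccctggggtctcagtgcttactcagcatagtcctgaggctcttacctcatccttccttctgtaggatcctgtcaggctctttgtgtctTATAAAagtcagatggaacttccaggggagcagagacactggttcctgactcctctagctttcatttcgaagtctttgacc
Ccl8: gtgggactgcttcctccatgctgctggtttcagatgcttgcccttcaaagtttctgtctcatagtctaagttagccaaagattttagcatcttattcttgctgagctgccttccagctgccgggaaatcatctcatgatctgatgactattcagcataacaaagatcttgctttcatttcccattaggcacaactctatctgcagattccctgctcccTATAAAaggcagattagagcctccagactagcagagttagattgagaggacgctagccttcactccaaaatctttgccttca
Cxcl12: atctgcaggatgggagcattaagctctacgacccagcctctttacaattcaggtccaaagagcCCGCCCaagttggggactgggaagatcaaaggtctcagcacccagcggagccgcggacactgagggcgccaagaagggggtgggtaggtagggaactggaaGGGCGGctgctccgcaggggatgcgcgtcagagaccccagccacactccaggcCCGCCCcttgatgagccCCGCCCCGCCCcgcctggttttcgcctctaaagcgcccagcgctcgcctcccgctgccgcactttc

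The Ccl12 and Ccl8 windows each held TATAAA on the gene's strand, starting 31 and 32 bases before the gene start. The motif was found in 4 of the 8 windows (Ccl12, Ccl8, Ccl9 and Cx3cl1) and in 13.6% of all 32851 windows of this length. The Cxcl12 window held no TATAAA and 5 GC boxes, of which the last 2 overlap by 1 base, a motif found in 2 of the 8 windows and in 35.7% of all. TGANTCA (AP-1) was found in 1 of the 8, that of Ccl9 (7.81% of all windows). A core motif of NF-kappaB and an interferon response motif were found in 0 of the 8 (1.47% and 3.44% of all windows). In global alignments the Ccl12 and Ccl8 windows shared 175 of 300 bases (58.3%), against 42% to 55.7% for the other 27 pairs. These are matches of letters and no evidence of binding.

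Affymetrix signals are linear fluorescence values with no read depth, scaled by the authors so that each array has the same trimmed mean of 150, and the number of arrays limits their precision. Array medians lay between 28.6 (Lira replicate 3) and 39.6 (Lira replicate 2). Of the 21 probe sets 9 were above the array median on all 6 arrays and 5 on none, and without detection calls a signal near or below the median may be background. Heart muscle markers were bright (6 genes, summed signal 146800 to 181052), while 2 red cell markers summed to 14.7 to 68.5. The red cell list held 3 genes, but Hbb-bt had no named probe set, and Hba-a1 (mean 13.7) and Alas2 (24.1) were dim. How much blood the tissue held is not read from these values. Differences are Lira minus placebo on log2(signal + 16), with SE from limma, and group means are in signal units ± SD (n = 3 per group). Over all 45037 probe sets tested, 1 passed an adjusted p of 0.05 with limma and Benjamini-Hochberg adjustment, or 0.00222%, and it belongs to the transferrin receptor Tfrc. At an unadjusted p under 0.05 there were 2322 of all probe sets. Of the 21 probe sets described here 0 passed the adjusted threshold, and nothing is read from this count, since this contrast chose them. The median difference was 0.001 over all probe sets.

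Ccl12, the mouse chemokine also called MCP-5, had the largest difference of the 10 genes. Its single probe set (1419282_at, Entrez gene 20293) gave 2.05, 22.6 and 17.9 signal units on placebo replicates 1, 2 and 3 and 111, 101 and 41.7 on Lira replicates 1, 2 and 3. All 3 Lira arrays lay above all 3 placebo arrays, and the gap between the highest placebo and the lowest Lira value was 19.1 units. The group means were 14.2 ± 10.8 and 84.8 ± 37.6, a ratio of 5.97, and the log2 difference was 1.73 ± 0.40. All placebo values were below their array's median and all Lira values above it, so the placebo level may be background and the ratio depends on it. With a pseudocount of 1 the difference was 2.83, and with 64 it was 0.90. It lay between 1.395 (without placebo replicate 1) and 2.09 (without Lira replicate 3) when single arrays were left out.

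**Figure D1:**
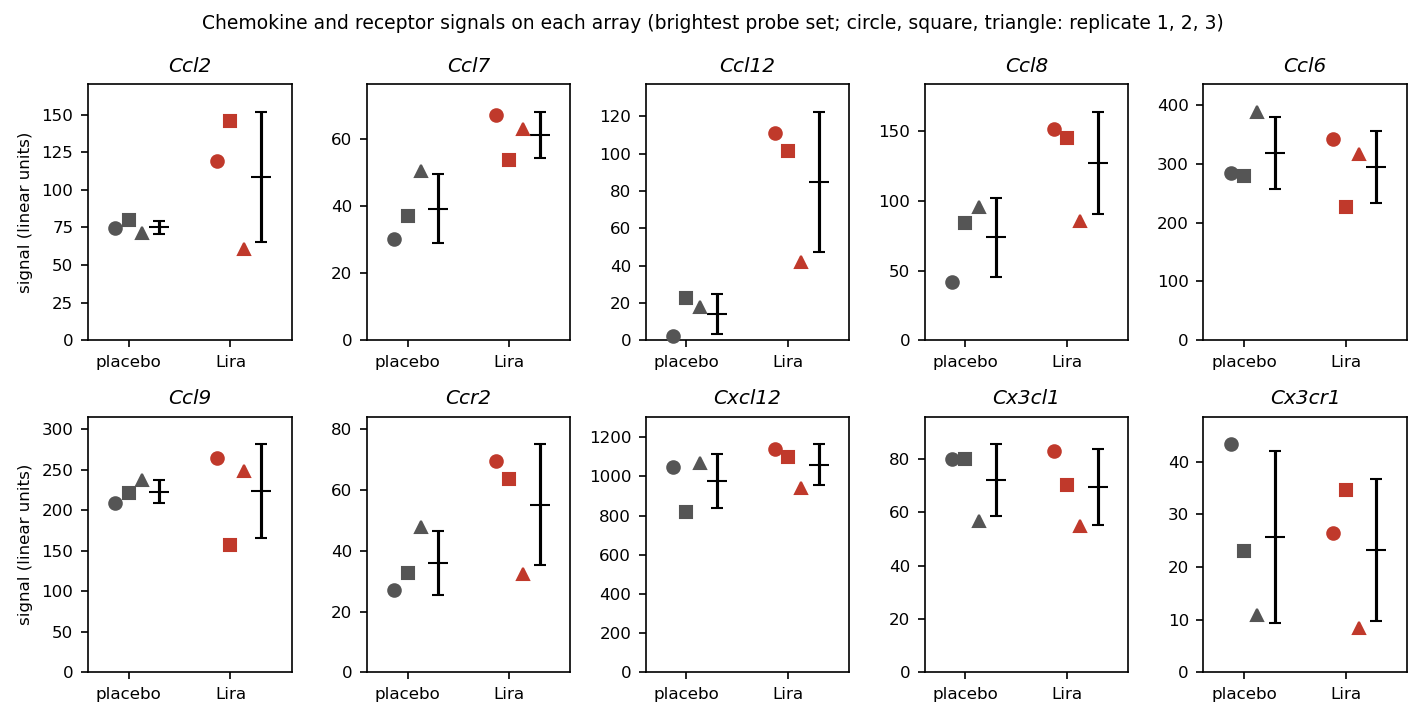
Signal of each gene's brightest probe set (linear units, y axis from 0) on the 3 placebo (grey) and 3 Lira (red) arrays, with the mean and SD of each group in black. Ccl12 and Ccl7 are the 2 genes whose groups do not overlap, and Lira replicate 3 (triangle) is the lowest Lira array for Ccl12, Ccl2, Ccl8, Ccr2, Cxcl12, Cx3cl1 and Cx3cr1.

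Ccl8, the next gene along the chromosome, measured 41.8, 84.0 and 95.8 with placebo and 151.5, 145 and 85.3 with Lira. Lira replicates 1 and 2 were above every placebo array, and Lira replicate 3 lay within the placebo range. The means were 73.8 ± 28.4 and 127 ± 36.5, a log2 difference of 0.69 ± 0.28. As for Ccl12, placebo replicate 1 was the lowest of its group and Lira replicate 3 the lowest of the Lira group. Across the 6 arrays the 2 genes had a Pearson r of 0.94 on the log2 scale, and of 0.96 after each group's mean was taken off. These r are descriptions over 6 arrays, picked from 45 pairs of the 10 genes.

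Ccl7 (MCP-3) measured 30.2, 36.9 and 50.3 with placebo and 67.0, 53.5 and 62.7 with Lira. Its groups did not overlap, though the highest placebo and the lowest Lira array were 3.15 units apart. The means were 39.2 ± 10.2 and 61.0 ± 6.87, a log2 difference of 0.49 ± 0.26, and the probe set was below the array median on 1 of the 6 arrays. Ccl2 (MCP-1), a ligand that recruits monocytes through Ccr2, measured 74.6, 79.8 and 71.3 with placebo and 119, 146 and 60.8 with Lira. Lira replicates 1 and 2 were the highest of all arrays and Lira replicate 3 the lowest. The means were 75.2 ± 4.26 and 108 ± 43.4, a log2 difference of 0.38 ± 0.26. Leaving out Lira replicate 2 brought it to 0.16, and leaving out Lira replicate 3 to 0.70. The placebo arrays of Ccl2 were thus close together, and the spread lay in the Lira group.

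Ccl11 (eotaxin), the gene between Ccl7 and Ccl12, measured 56.0, 43.2 and 50.9 with placebo and 17.3, 49.4 and 52.0 with Lira. It was lower on Lira replicate 1, where Ccl12, Ccl7 and Ccl8 were highest, and overlapped elsewhere, with a log2 difference of -0.32 ± 0.32 (limma, adjusted p = 0.97). Ccl11 was added for its place between members, not by the rule for named genes.

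Ccl6 and Ccl9, CC ligands that bind Ccr1 and are made by myeloid cells, did not differ between the groups beyond their spread. The brighter Ccl6 probe set (1417266_at) measured 284, 279.8 and 388 with placebo and 341, 226 and 317 with Lira (difference -0.11 ± 0.17). Its other probe set (1420249_s_at, of a type that may match more than 1 transcript) gave -0.19 ± 0.18. The brighter Ccl9 probe set (1417936_at) measured 209.5, 221 and 238 with placebo and 265, 158 and 248 with Lira, a difference of -0.02 ± 0.18. On the brighter probe set of both genes Lira replicate 2 was the lowest of the 6 arrays, but on the other Ccl6 probe set it was the highest Lira array (87.4). The Ccl9 probe sets moved together over the arrays (r = 0.99), and those of Ccl6 less so (r = 0.36), both as descriptions over 6 arrays. The differences changed sign when Lira replicate 2 was left out (0.06 for Ccl6, 0.19 for Ccl9) and when placebo replicate 3 was left out (0.04 and 0.02).

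Ccr2, the receptor of Ccl2, Ccl7 and Ccl12, has 4 probe sets. The brightest (1421188_at) measured 27.2, 32.8 and 47.8 with placebo and 69.5, 63.5 and 32.4 with Lira, so that Lira replicates 1 and 2 were above every placebo array and Lira replicate 3 below 2 of them. The log2 difference was 0.43 ± 0.31. The next (1421186_at) gave 0.32 ± 0.38, the one after it (1421187_at) 0.62 ± 0.35, and the dimmest (1460067_at), below the median on every array, -0.23 ± 0.31. Of the 4, 3 were thus higher with Lira and 1 lower, and the groups overlapped on each. On its brightest probe set Ccr2 followed Ccl12 over the arrays with r = 0.84, and Ccl8 with r = 0.92. That probe set had r of 0.38 with 1421186_at, 0.55 with 1421187_at and 0.15 with 1460067_at. The pattern over the arrays is thus that of 1 probe set.

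Cxcl12, the ligand of Cxcr4, was measured above the array median on all arrays by 2 of its 3 probe sets. Probe set 1417574_at measured 1046, 819.6 and 1068 with placebo and 1137, 1100.1 and 939 with Lira, with overlapping groups and a log2 difference of 0.12 ± 0.12 (-0.003 without placebo replicate 2). Probe set 1448823_at measured 244, 269 and 275 with placebo and 334, 326 and 329 with Lira. On this probe set the Lira arrays lay above every placebo array, within 8.22 units of each other, and the log2 difference was 0.31 ± 0.11. The third (1439084_at) was below the median on all arrays and gave -0.01 ± 0.34. The 2 bright probe sets share a direction but differ in size, with r = 0.30 between them over the 6 arrays.

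Cx3cl1 and its receptor Cx3cr1 did not differ between the groups beyond their spread. The Cx3cl1 probe set above the median on all arrays (1415803_at) measured 79.8, 80.0 and 56.6 with placebo and 83.1, 70.4 and 55.0 with Lira, a log2 difference of -0.04 ± 0.23. A dim one (1415804_at) measured 19.2, 36.9 and 2.92 with placebo and 5.33, 2.93 and 3.07 with Lira, a difference of -0.73 ± 0.34, and the remaining ones gave -0.21 ± 0.30 (1421610_at) and 0.24 ± 0.19 (1441884_x_at). Cx3cr1 measured 43.3, 23.0 and 10.9 with placebo and 26.5, 34.6 and 8.38 with Lira on its brighter probe set (1450020_at), a difference of -0.08 ± 0.39. It was above the array median on 1 of the 6 arrays, and the other probe set (1450019_at, -0.29 ± 0.22) on none, so that its values lie where signal and background are hard to tell apart. On the brightest probe set of both genes replicate 3 was the lowest array of its group. Both of these differences turned positive when placebo replicate 1 (0.02 for Cx3cl1, 0.21 for Cx3cr1) or Lira replicate 3 (0.08 and 0.23) was left out, as did that of Cx3cl1 with placebo replicate 2 left out (0.02). Dimmer probe sets differed. On 1450019_at placebo replicate 3 was the highest of its group (14.2), and the difference stayed negative with any array left out (-0.46 to -0.05). That of 1415804_at also stayed negative (-1.13 to -0.39).

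**Figure D2:**
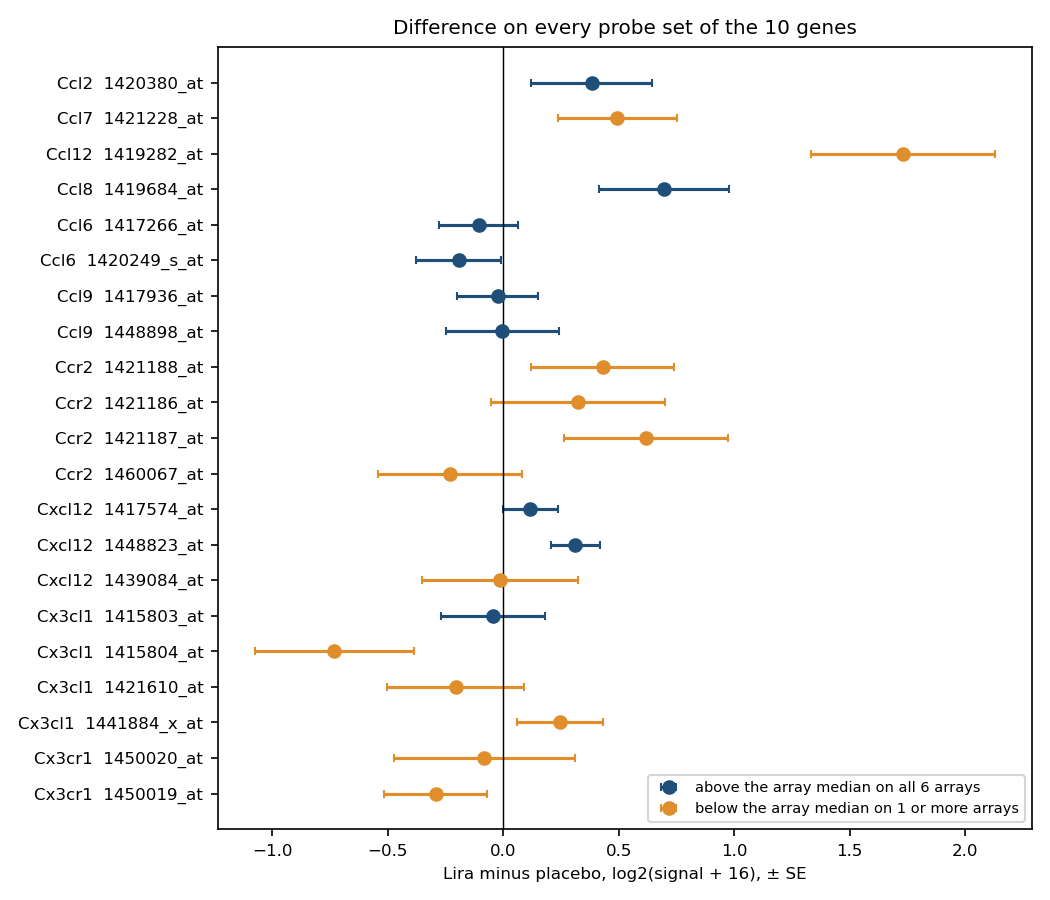
Log2 difference, Lira minus placebo, with SE (x axis, log2 of signal + 16) for each of the 21 probe sets (y axis). Ccl12 is farthest from 0 at 1.73, and probe sets of Ccr2, Cxcl12 and Cx3cl1 lie on both sides of 0.

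By the brightest probe set, 6 of the 10 genes were higher with Lira and 4 lower. Their median log2 difference was 0.25, beside 0.004 over all 18193 genes. Over all 21 probe sets 10 were higher, 11 were lower and the median was -0.004, so the tallies differ. The groups did not overlap on 2 of the 10 (Ccl12 and Ccl7), both higher with Lira, and on 0 lower, where 5.49% of all genes did so higher and 5.21% lower. Counting probe sets, 3 of 21 were apart with Lira higher (those of Ccl12, Ccl7 and 1 of Cxcl12) and 0 with Lira lower, beside 5.14% and 5.24% of all probe sets. Since the list was drawn up with this contrast known, nothing is read from these shares. By the brightest probe set, Ccl12, Ccl2, Ccl7, Ccl8 and Ccr2 kept their sign with each of the 6 arrays left out, and the other 5 genes did not. On these probe sets the difference of Ccl8 lay between 0.40 (placebo replicate 1 left out) and 0.93 (Lira replicate 3 left out), and that of Ccr2 between 0.28 (Lira replicate 1 left out) and 0.69 (Lira replicate 3 left out). The split depends on the probe set. Those that stayed positive include 1448823_at of Cxcl12 (0.26 to 0.34) and 1441884_x_at of Cx3cl1 (0.12 to 0.33). Those that stayed negative were 1420249_s_at of Ccl6 (-0.31 to -0.12), 1415804_at of Cx3cl1 and 1450019_at of Cx3cr1. The dim Ccr2 probe set 1460067_at changed sign (-0.44 to 0.10).

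**Figure D3:**
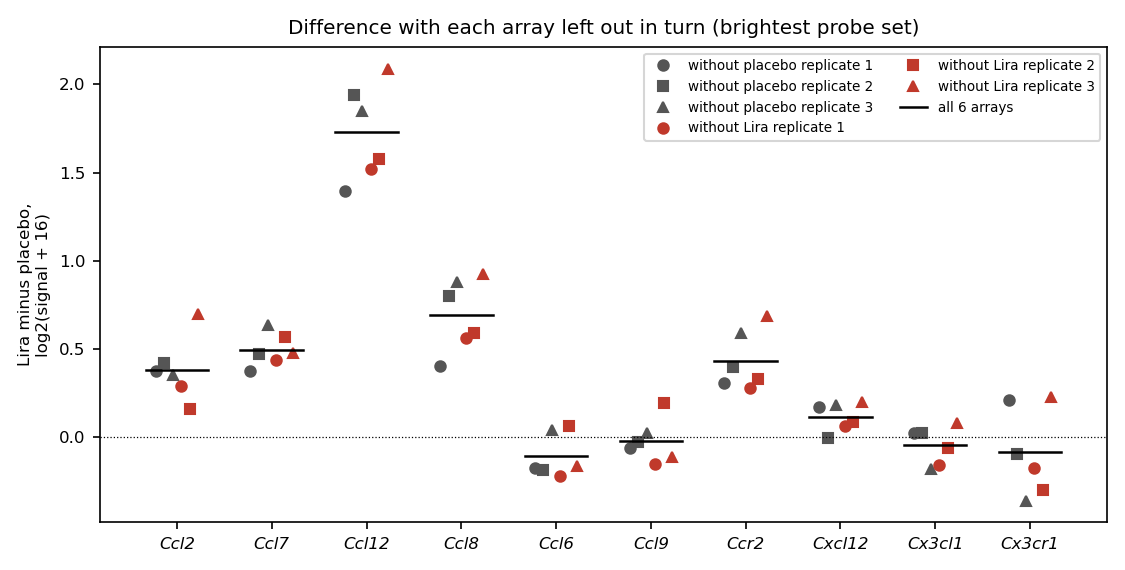
Log2 difference of each gene's brightest probe set (y axis, log2 of signal + 16) with all 6 arrays (black line) and with each array left out in turn (grey, a placebo array left out; red, a Lira array left out). Ccl12 stays between 1.395 and 2.09, and Ccl6, Ccl9, Cxcl12, Cx3cl1 and Cx3cr1 cross 0.

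The rest of the chemokine system was examined from lists of ligands, receptors, inducing genes and signalling genes. Of 12 other CC ligands measured, 5 were higher and 7 lower with Lira (median log2 difference -0.06), and 0 passed an adjusted p of 0.05 (limma, 0 at an unadjusted p under 0.05). Those whose mean signal reached 50 were Ccl27a, at 107 ± 6.15 and 110 ± 35.4, and Ccl4 at 51.0 ± 16.7 and 51.2 ± 16.8. Of 15 CXC and XC ligands 9 were higher and 6 lower (median 0.05), and 0 passed (limma, 1 at an unadjusted p under 0.05). That gene was Cxcl1, which attracts neutrophils. Cxcl1 measured 100.2, 71.7 and 87.9 with placebo and 122, 161 and 106 with Lira, with no overlap and a log2 difference of 0.50 ± 0.20 (limma, adjusted p = 0.95). Its other probe sets gave the same direction, at 0.40 and 0.62. Of the 15 ligands the groups were apart with Lira higher on 1 and lower on 0, beside 5.49% and 5.21% of all genes. The platelet chemokine Pf4 differed by 0.10 ± 0.12, Cxcl14 by 0.15 ± 0.17 and Cxcl16 by 0.20 ± 0.17, each with overlapping groups.

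Of 19 other chemokine receptors 7 were higher and 12 lower (median -0.05), and 0 passed (limma, 2 at an unadjusted p under 0.05, Ccrl2 and Xcr1). Ccrl2, an atypical receptor that binds chemerin and does not signal as chemokine receptors do, measured 311, 195 and 213 with placebo and 145, 162 and 157 with Lira. All Lira arrays lay below all placebo arrays, with a log2 difference of -0.56 ± 0.17 (limma, adjusted p = 0.86). Ackr3, which takes up Cxcl12 and so clears it, measured 1558 ± 109 and 1403 ± 128 with overlapping groups. The groups were also apart, with Lira lower, on Xcr1, a dendritic cell receptor (28.5 ± 4.20 and 5.44 ± 4.02, a dim signal), and on Ackr4 (56.8 ± 1.14 and 40.5 ± 22.1, with Lira replicate 3 at 15.0; another probe set gave 0.07 ± 0.26). The groups were thus apart with Lira lower on 3 of the 19 receptors and with Lira higher on 0, beside 5.21% and 5.49% of all genes. Xcr1 and Ackr4 were added after their values were seen. Ccr1, the receptor of Ccl6 and Ccl9, was dim and overlapped, at 34.9 ± 8.70 and 20.3 ± 15.7. The receptor Cxcr4, partner of Cxcl12, measured 39.7 ± 2.44 and 40.2 ± 7.78 and was added as the receptor of a member.

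**Figure D4:**
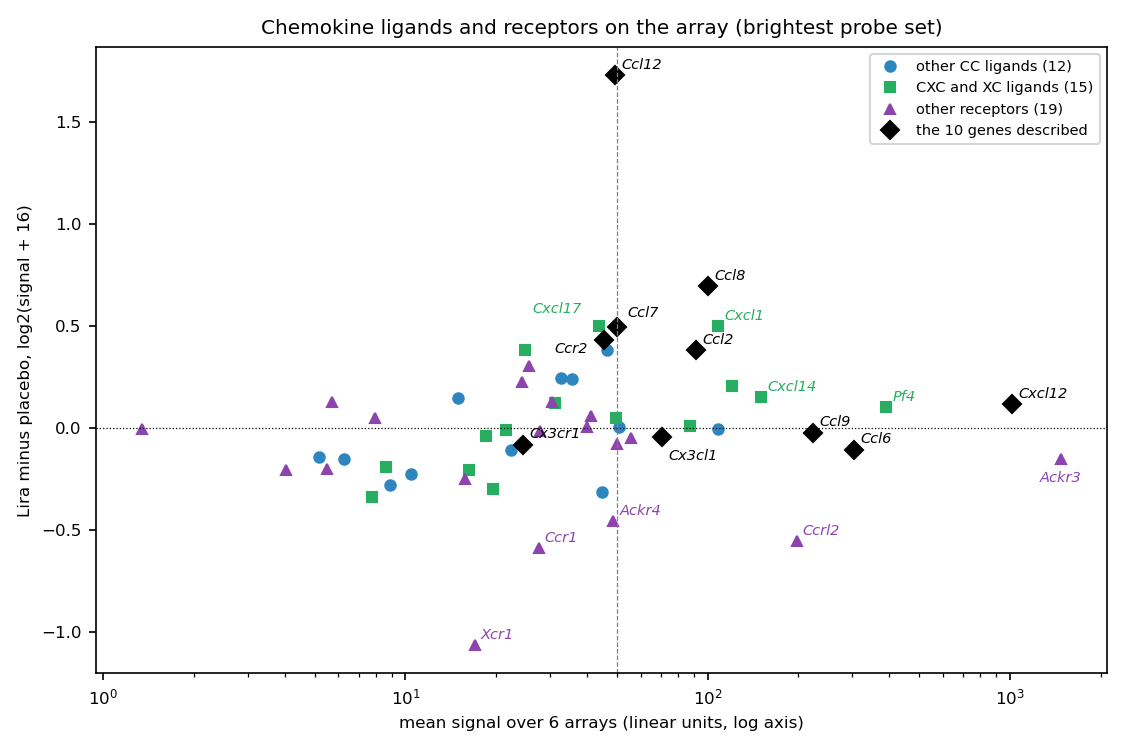
Mean signal over 6 arrays (x axis, log scale, linear units) against the log2 difference, Lira minus placebo (y axis), for 46 other chemokine ligands and receptors and the 10 genes described; the dashed line marks a mean signal of 50. Signals of different probe sets do not rank transcripts by abundance. Ccl12 is the highest point at 1.73 and Xcr1 the lowest at -1.06.

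Of 16 genes that induce chemokine transcription or encode inducing cytokines, 13 were higher and 3 lower with Lira (median 0.11), and 0 passed (limma, 1 at an unadjusted p under 0.05). The interleukin-1 receptor Il1r1 measured 56.4, 54.7 and 24.8 with placebo and 78.2, 71.1 and 69.1 with Lira, a log2 difference of 0.58 ± 0.27. The transcription factor Irf1 measured 286, 293 and 350.1 with placebo and 386, 356 and 366 with Lira (0.25 ± 0.11). Both had no overlap between groups, at an adjusted p of 0.95 (limma). Nfkbia, the inhibitor that NF-kappaB itself induces, was lower, at 3544 ± 291 and 3123 ± 39.4 (-0.18 ± 0.09) with no overlap, and Hif1a differed by 0.02 ± 0.12. All 5 Nfkbia probe sets were lower with Lira, with differences from -0.32 to -0.18. Of the 16 genes the groups were apart with Lira higher on 2 and lower on 1, beside 5.49% and 5.21% of all genes. Of 17 genes of chemokine receptor signalling and adhesion 10 were higher and 7 lower (median 0.06), and 0 passed (limma, 1 at an unadjusted p under 0.05). That gene was Pik3cg, at 56.1 ± 21.9 and 24.6 ± 14.0, with overlapping groups and a difference of -0.83 ± 0.35 (limma, adjusted p = 0.95). Its mean signal was below 50, and it was added after its values were seen. Of the other genes, the G protein subunit Gnai2 differed by 0.06 ± 0.09 and Rgs2, which turns off G protein signals, by -0.34 ± 0.17. The integrin Itga4, by which monocytes adhere, differed by -0.35 ± 0.31, and the groups overlapped on all of these. The groups did not overlap on 1 of the 17, Adam10, a protease that sheds Cx3cl1, at 631 ± 26.0 and 554 ± 37.6, which was added after its values were seen (of all genes, 5.21% were apart with Lira lower). Of its 4 probe sets 3 were lower and 1 higher (0.32 ± 0.34).

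White blood cell markers are given beside these values because chemokines and Ccr2 are made by such cells and draw them in. In whole tissue a change in cell number and a change in RNA per cell cannot be told apart. All 5 general leukocyte genes were higher with Lira, with summed signals of 462 to 556 on placebo arrays and 533 to 685 on Lira arrays, which overlap. Of the macrophage markers, 13 in all, 10 were higher and 3 lower, and their sums were 3586 to 3940 and 3867 to 4262. Of 4 monocyte markers measured 2 were higher and 2 lower, with sums of 62.8 to 149 and 90.7 to 135, and 0 reached a mean signal of 50. Of 4 neutrophil markers 1 was higher and 3 lower (80.9 to 118 and 74.3 to 84.4), of 6 T cell markers 1 and 5 (68.9 to 125 and 65.0 to 102), of 3 B cell markers 1 and 2 (31.6 to 82.0 and 48.3 to 89.6), and of 4 mast cell markers 1 and 3 (81.8 to 105 and 84.2 to 100.2). No marker was listed at 0. The part of these cells in the chemokine values was not tested.

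Markers of resident cells, which can also make chemokines, were mostly higher with Lira by small amounts, and their part was not tested either. Of 6 endothelial markers 5 were higher and 1 lower, with summed signals of 2459 to 3007 on placebo and 2791 to 3016 on Lira arrays. Of 5 fibroblast markers 4 were higher and 1 lower, with sums of 9956 to 10459 and 10628 to 12586. These sums did not overlap but are mostly Dcn (6676 to 6867 and 7303 to 8706), and the mean log2 signals of the same genes did overlap (9.80 to 9.93 and 9.90 to 10.10). Of 6 smooth muscle and pericyte markers 4 were higher and 2 lower (11837 to 13216 and 13029 to 14022), and all 6 heart muscle markers were higher (147883 to 154982 and 146800 to 181052). Of 3 fat cell markers 2 were higher and 1 lower (22.9 to 76.4 and 30.3 to 65.6), and both red cell markers were lower (14.7 to 68.5 and 15.2 to 32.5). In these 13 marker lists 0 genes passed an adjusted p of 0.05 (limma), with 4 of 67 at an unadjusted p under 0.05, where 973 of all 18193 genes were. Of these, 2 were macrophage markers that differed in opposite directions, the complement gene C1qc (0.28 ± 0.10) and Cbr2 (-0.40 ± 0.16).

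The named genes with the pattern most like Ccl12 were sought by Pearson r over the 6 arrays among 9787 other genes whose mean signal reached 50. The highest were Gabpb2 (r = 0.99), Ccdc88a (0.98), Klhl8 (0.97), Cbr3 (0.97) and Iws1 (0.97), and the lowest Timmdc1 (-0.99), Phxr4 (-0.98) and Pkp2 (-0.98). Ccdc88a, an actin-binding protein, measured 53.0, 59.2 and 61.2 with placebo and 90.2, 88.8 and 67.5 with Lira. Pkp2, a desmosome protein of heart muscle, measured 3233, 3123 and 3189 with placebo and 2957, 2943 and 3083 with Lira. In all 8, as in Ccl12, Lira replicate 3 was the Lira array nearest to placebo. In all, 88 genes had r over 0.9, and since the points share the 2 groups, a gene that differed between them tends to an r far from 0, positive where Lira was higher and negative where it was lower. For Cx3cr1 the highest were Znrf1 (0.996), Acot3 (0.996) and Mta3 (0.98), and 70 genes had r over 0.9. In these, as in Cx3cr1, replicate 3 was the lowest array of each group.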

How the data were processed

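Left ventricle RNA of 3 placebo and 3 Lira mice was measured on Affymetrix mouse arrays. The design text speaks of 10 mice and of a ventricle from each; the 6 arrays are taken as 6 mice, and other mice were not analysed here. The labels name the ventricle as the source, but their extraction protocol describes blood. The authors deposited linear probe set intensities; the submitters' processing notes name Affymetrix Expression Console, with version and summarisation method not given in the sources used here. Each array has a 2% trimmed mean of 150, as checked on the values, so only changes relative to other genes can be seen, and detection calls were not used.

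The 64 control probe sets were left out, which leaves 45037 of 45101, with no filter on low signals. Of these 34945 had 1 gene in the platform annotation, 932 several and 9160 none; several-gene probe sets were not named. Symbols were updated through gene IDs to RefSeq (34741 matched). Groups were compared across all probe sets in limma 3.58.1 (R 4.3.3) on log2(signal + 16), which understates changes of dim genes; the tests were two-sided, with a trended prior variance and p-values adjusted by Benjamini-Hochberg. A gene is represented by its brightest probe set unless another is named. The fit was tested on simulated data.

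The 10 genes, the lists (5 of the chemokine system, 13 of cell type markers), and the rule for named genes were chosen with earlier results of these data known. The rule takes every member, and from each chemokine list genes past the adjusted threshold, else the 2 brightest and the 2 with the largest difference among those whose mean signal reached 50, and the genes most like Ccl12 and Cx3cr1. List members without a named probe set of their own were not analysed here. Promoter windows come from RefSeq (GRCm38.p6). Alternatives were other normalisations, pseudocounts, filters, variance models, array weights, the replicate number as a block, and each array left out.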

Additional observations from a re-analysis of the deposited data

How the results depend on the processing

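Each difference was recomputed under 16 alternatives. Ccl12 was higher with Lira in all 16, from 0.90 with a pseudocount of 64 to 2.83 with a pseudocount of 1, and from 1.395 to 2.09 with single arrays left out; with quantile normalisation it was 1.78. Ccl2, Ccl7, Ccl8 and Ccr2 were also higher in all 16, from 0.16 to 0.70, 0.28 to 0.65, 0.40 to 0.93 and 0.24 to 0.69. The number of members higher with Lira was 6 to 8 of 10. The 1 probe set past the adjusted threshold in limma became 2 when the lowest 30% of probe sets were left out (Tfrc and Ano10), and 0 with quantile normalisation, median centring, a pseudocount of 64 or no variance trend, and 0 to 1 with single arrays left out; the cause was not tested. In the alternatives on all 45037 probe sets 1883 to 2533 had an unadjusted p under 0.05, against 1681 of 31526 without the lowest 30% and 983 of 18193 with 1 probe set per gene. None of the 5 chemokine lists gained a gene past the threshold in any alternative (limma, 0 to 3 genes per list at an unadjusted p under 0.05).

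Same-numbered placebo and Lira arrays had correlations of their deviations from the group means of -0.03, 0.05 and -0.10 for numbers 1, 2 and 3, so the number was not taken as a pairing. With the replicate block 0 probe sets passed, and the Ccl12 difference was 1.73 ± 0.41. Of the 21 member probe sets 12 were below the array median on 1 or more arrays. Their values below the median may be background, which leaves the size of the difference uncertain. For Ccl12 these were the placebo values, while its Lira values lay above the median.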

Other observations

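Lira replicate 3 was the lowest Lira array on several inflammatory genes, but not on others. By the brightest probe set it was so for 7 of the 10 chemokine genes, all but Ccl6, Ccl9 and Ccl7. The share of all genes on which Lira replicate 3 was the lowest Lira array was not computed, so nothing is read from this count. The cytokine gene Tnf measured 17.8, 15.6 and 7.75 with placebo and 40.6, 31.7 and 9.63 with Lira, and Il6 16.3, 2.56 and 12.5 with placebo and 24.5, 48.5 and 13.2 with Lira, both dim. The leukocyte genes Ptprc (92.9, 103 and 104 with placebo, 142, 153 and 106 with Lira) and Cd52 (68.9, 89.0 and 96.1 with placebo, 117, 153 and 93.4 with Lira) also had Lira replicate 3 lowest of its group, as had Coro1a (75.8) and Laptm5 (143). The remaining one of the 5 general leukocyte genes, Cd53, went the other way, with 111, 97.2 and 115 on Lira replicates 1, 2 and 3. Lira replicate 3 also had the lowest array median, 28.6, and its part in these values was not tested. With quantile normalisation, which gives all arrays one distribution, the Ccl12 difference was 1.78. As a difference between groups, this value does not show which Lira array was then lowest. These genes were picked after their values were seen.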
